A study of Mus musculus with 10 samples.

Results

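Cochlear gene expression was compared between noise-exposed mice of 2 strains, on the 5 noise arrays among the 10 arrays of the study. They are the 2 noise arrays titled B6.CAST and the 3 noise arrays titled 129X1/SvJ or 129XI/SvJ, and every probe set other than the manufacturer's controls was taken, 12422 of 12488, of which 8696 passed the filter on dim signals and were tested. All mice were females aged 10 weeks, and each array carried RNA pooled from 8 mice. Exposure lasted 1 h, to an octave band of noise at 10 kHz with a level of 105 dB SPL, and tissue was taken 6 h after it. The other 5 arrays, 3 of 129X1/SvJ and 2 of B6.CAST, came from control mice that sat in the exposure chamber without noise. In 129X1/SvJ, the last noise array and the last control array are the ones spelled 129XI/SvJ, and they were counted as 129X1/SvJ. The inbred strain 129X1/SvJ is known for its resistance to noise damage. B6.CAST is a C57BL/6 strain that carries a CAST segment with the hearing gene Cdh23, so the strains differ across the genome and not at 1 locus. RNA came from the microdissected membranous labyrinth, which holds the sensory epithelium, lateral wall and nerve together, and in such a mixture fewer cells of a type and less RNA per cell cannot be told apart.

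Loud sound strains hair cells, the stria vascularis and the spiral ligament, and the tissue answers with a fast transcriptional wave. Immediate early genes such as Fos, Egr1 and Nr4a1 are switched on within minutes, without new protein synthesis, through transcription factors that are already present. Heat shock proteins, growth arrest genes, chemokines and interleukin-6 family signalling through STAT3 follow. A strain difference measured after noise can hold 2 kinds of gene, those that differ between the strains at any time and those that differ in the response.

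The labyrinth genes Coch (cochlin) and Gjb2 (connexin 26), looked up after their values were seen, were bright, with signals of 13474 to 16833 and 9075 to 19232 on the noise arrays. Of all arrays, the first 129X1/SvJ array with noise had the lowest mean correlation of log2 values with the other arrays, 0.910, while the other 9 had 0.943 to 0.955. On it the X-inactivation RNA Xist had a signal of 18.1, against 49.9 to 169 on the other 9 arrays, and the Y-linked gene Eif2s3y 410, against 103 to 440. For Gapdh the ratio of 3′ to 5′ signal, which rises as RNA degrades, reached 6.94 on B6.CAST noise array 1 and 29.2 on 129X1/SvJ control array 2, and was 0.79 to 1.4 elsewhere. Nnt, which is partly deleted in C57BL/6J mice, had signals of 465 and 373 on the B6.CAST noise arrays and 575 to 759 on those of 129X1/SvJ, a difference of -0.58 ± 0.24 that did not pass (adjusted p = 0.39). The part of these traits in the differences below was not tested, other than by leaving out arrays.

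After noise, 126 of 8696 probe sets (1.45%) differed between the strains at an adjusted p below 0.05 in limma, 76 higher in B6.CAST (0.874%) and 50 lower (0.575%). With 1 probe set per gene, 62 genes were higher and 41 lower of 6507 tested. Differences are B6.CAST minus 129X1/SvJ on the log2 scale, with their standard error (SE; n = 2 and 3 arrays). They exceeded 1 in size for 106 of the 126 probe sets and 2 for 35. In all 126 the arrays of the strains did not overlap, as they did not in 2202 of all tested probe sets (25.3%), so that trait alone sets no gene apart. When 1 array was left out, the count was 81 without the second noise array of 129X1/SvJ, and 35 and 27 without the first and the second noise array of B6.CAST. It was 26 without both arrays of high Gapdh ratio. Of the 103 called genes, 18 passed in all 10 such fits and 37 were lost only in fits without a B6.CAST noise array.

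Most of these differences were measured without noise as well. In control mice, whose arrays share only the normalization and the estimate of the spread with the noise arrays, 122 of the 126 differences had the same sign and 112 had arrays that did not overlap in that direction, against 29.8% of all probe sets in either direction. Of the 126, 54 were also called in control mice in the same direction, which is 42.9% of the calls with noise and 67.5% of the 80 calls in control mice (0.92% of the probe sets tested). Leaving out 1 array moved the control count of 80 to 23 and 28 (B6.CAST control arrays 1 and 2), 33 and 39 (129X1/SvJ control arrays 2 and 3) and 132 (129X1/SvJ noise array 1). The 76 higher probe sets had a median difference of 1.28 with noise and 0.99 in control mice, and the 50 lower ones -1.83 and -1.03. Over all tested probe sets the 2 strain differences had a Pearson correlation of 0.396, and 0.273 over those called in neither. A test of the change in strain difference between control and noise-exposed mice called 0 of 8696 in limma, with 259 at an unadjusted p below 0.05 and a smallest adjusted p of 0.521. Unadjusted p-values given below for the change in a gene's strain difference therefore did not pass over all probe sets.

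**Figure D1:**
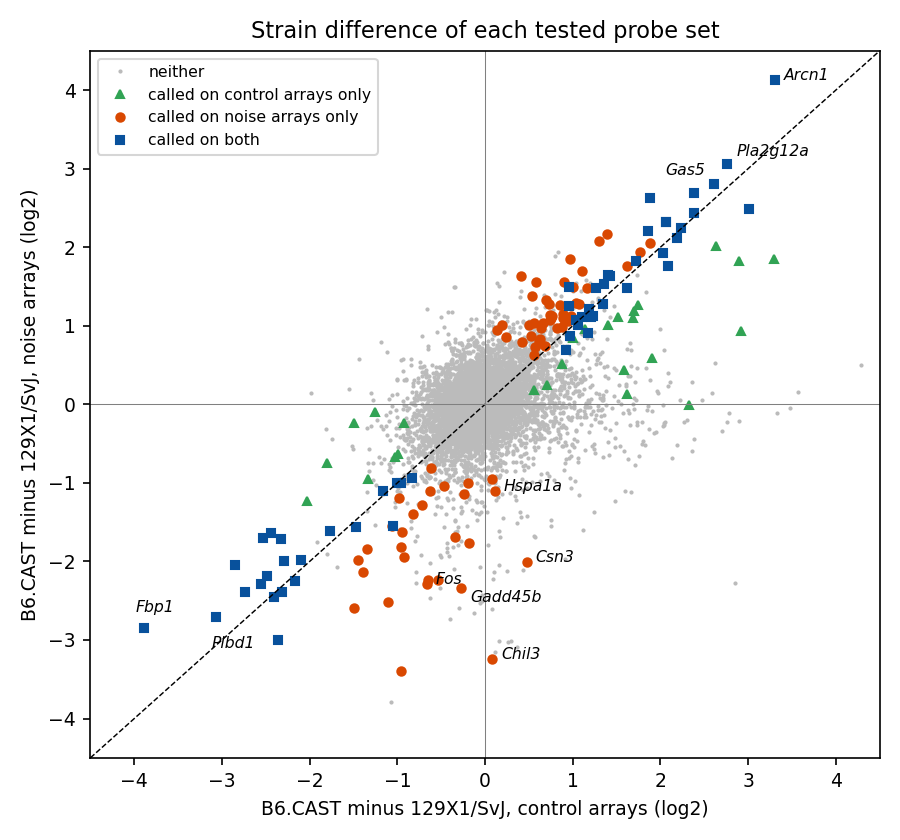
Strain difference of each tested probe set (B6.CAST minus 129X1/SvJ, log2) in control mice on the horizontal axis and in noise-exposed mice on the vertical axis; the dashed line marks equal differences. Squares (54, called in both) lie along the line, while some probe sets called with noise, such as those of Gadd45b, Csn3, Hspa1a and Chil3, lie below it near a control difference of 0.

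Among the 126 calls, 12 had a control difference that was small beside that with noise (their ratio below 0.25) or of the opposite sign, 10 lower and 2 higher in B6.CAST after noise. The lower ones belonged to Gadd45b (both of its probe sets), Hspa1a, Csn3, Chil3, Trim59, Gpr3, Pim1, Lmna and Zfp36l2, and the higher ones to Aass and Cers2. Gpr3, Pim1, Lmna and Cers2 are named after their values were seen. The immediate early genes Fos and Nr4a1 lay close to this group.

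Fos, Nr4a1, Gadd45b and Hspa1a are shown with the 250 bases before their RefSeq start site (GRCm38.p6, the C57BL/6J assembly, so not the 129 sequence), since they are textbook targets of fast transcription and led the lower genes of these lists. Capitals mark matches on either strand to TGACG (core of the cAMP response element, read as CGTCA on the other strand), TGANTCA (AP-1 site), GAANNTTC (a heat shock element unit) or TATAAA (the TATA box), and no marked match overlaps another. The windows are chr12:85473640-85473889 on the plus strand for Fos, chr15:101266596-101266845 plus for Nr4a1, chr10:80929841-80930090 plus for Gadd45b and chr17:34972157-34972406 minus for Hspa1a, each printed 5′ to 3′ of its gene.
Fos: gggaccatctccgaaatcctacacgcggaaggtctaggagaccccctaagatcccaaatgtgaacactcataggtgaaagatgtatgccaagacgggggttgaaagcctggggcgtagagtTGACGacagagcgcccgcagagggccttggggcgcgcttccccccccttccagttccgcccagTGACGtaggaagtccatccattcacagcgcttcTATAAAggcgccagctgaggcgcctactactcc
Nr4a1: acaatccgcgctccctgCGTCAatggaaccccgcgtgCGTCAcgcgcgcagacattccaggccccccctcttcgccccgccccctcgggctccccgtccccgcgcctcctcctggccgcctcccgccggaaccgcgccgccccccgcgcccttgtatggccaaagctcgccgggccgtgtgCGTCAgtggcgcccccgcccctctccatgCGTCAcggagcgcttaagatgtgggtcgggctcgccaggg
Gadd45b: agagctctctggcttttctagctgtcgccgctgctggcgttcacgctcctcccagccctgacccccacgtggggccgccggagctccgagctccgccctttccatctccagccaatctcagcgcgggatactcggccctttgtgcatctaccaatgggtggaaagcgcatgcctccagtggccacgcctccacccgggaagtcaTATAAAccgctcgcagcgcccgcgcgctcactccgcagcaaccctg
Hspa1a: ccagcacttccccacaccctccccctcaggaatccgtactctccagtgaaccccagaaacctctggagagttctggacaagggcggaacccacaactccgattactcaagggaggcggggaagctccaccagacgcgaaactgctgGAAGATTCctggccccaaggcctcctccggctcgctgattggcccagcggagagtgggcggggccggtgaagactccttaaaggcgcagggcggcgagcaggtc
TGACG occurred 2 times upstream of Fos and 4 times upstream of Nr4a1, and in 17.8% of all 32851 RefSeq windows of that length. TATAAA stood upstream of Fos and Gadd45b (12.4% of windows) and GAANNTTC upstream of Hspa1a (6.69%). TGANTCA (6.75%) was not found in these 4 windows. A match describes the letters and is not evidence of a bound factor.

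Fos, which pairs with Jun proteins to form AP-1, had signals of 7581, 2489 and 2548 on the 129X1/SvJ noise arrays and 966 and 571 on those of B6.CAST. The control arrays lay far below, at 76.4 to 122 and at 49.3 and 65.8. Both strains were thus above their controls, and after noise every B6.CAST array was under every 129X1/SvJ array, by -2.29 ± 0.43 (adjusted p = 0.022). Noise minus control was 4.95 for Fos in 129X1/SvJ, where 44 probe sets (0.506%) passed, and 3.33 in B6.CAST, where 4 (0.046%) passed, and Fos passed in both. The gap between these values had an unadjusted p = 0.021 in limma. Without 129X1/SvJ noise array 1 the strain difference of Fos was -1.76 and still passed, and without either noise array of B6.CAST it did not pass.

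Nr4a1, an orphan nuclear receptor of the same early wave, had signals of 3270, 1400 and 1735 in 129X1/SvJ and 510 and 340 in B6.CAST, against 210 to 349 and 122 and 213 in control mice. The difference was -2.24 ± 0.36 (adjusted p = 0.013), and it was lost without the second noise array of B6.CAST. In Gadd45b, a stress gene that binds cell cycle and MAP kinase proteins, the gap was as wide, with signals of 3252, 2289 and 2092 against 615 and 388. Its control arrays lay at 240 to 303 in 129X1/SvJ and at 202 and 239 in B6.CAST, close together. The difference after noise was -2.34 ± 0.25 (adjusted p = 0.00084), against -0.27 in control mice, and it passed without any 1 array. For the change between them, the unadjusted p was 0.00012 and the adjusted p 0.521. The second probe set of Gadd45b gave -1.69 and passed too (adjusted p = 0.014), while the brighter one may match related sequences.

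These 3 were the calls among the genes of the early wave, but the others leaned the same way. Of 16 tested AP-1 and early transcription factor genes, 0 were called higher and 2 lower in B6.CAST, all 16 differences were negative, and the median was -0.76 against 0.019 over all genes tested. In control mice the median of these 16 was -0.23 and 0 were called. Egr1, a zinc finger factor, had signals of 2692, 806 and 854 against 591 and 321 (-1.47 ± 0.46, adjusted p = 0.21). Egr2 (-0.85) and Atf3 (-1.19) had non-overlapping arrays as well and did not pass. Their control differences were -0.81 and -0.43, so that of Egr2 was nearly the same without noise. Myc (-0.12) and Klf6 (-0.21), chosen after their values were seen, overlapped. Of 21 early feedback and stress genes, 1 was called lower and 0 higher, with a median of -0.53 and -0.095 in control mice. Gadd45a (-0.76 ± 0.17, adjusted p = 0.051), the growth factor Hbegf (-1.17 ± 0.29, adjusted p = 0.089), Dusp2 (-1.27) and Ier2 (-0.91) did not pass. The lean was not shared by every gene of the wave, since Gem, a small GTPase named after its values were seen, had signals of 939 to 1660 against 731 and 1518 (-0.20 ± 0.34).

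The first noise array of 129X1/SvJ was the highest in these genes. The 16 transcription factor genes had a mean level, relative to their average over the 10 arrays, of 1.68 on it, 0.71 and 0.67 on the other two noise arrays of 129X1/SvJ, and 0.25 and -0.19 on those of B6.CAST. Without that array their median difference was -0.55, with the same count of 2 called lower. Without the first and the second noise array of B6.CAST the medians were -0.83 and -0.70, with 1 and 0 called. The median of the feedback genes was -0.38 without 129X1/SvJ noise array 1. The summed signal of 15 neutrophil markers was also highest on that array and lower in B6.CAST. It was 39497, 13347 and 16561 on the 129X1/SvJ noise arrays and 2536 and 2913 on those of B6.CAST. Among control arrays, 129X1/SvJ array 3 (22280) and B6.CAST array 1 (21156) had the highest sums, with early gene levels of -0.49 and -0.79. These 2 arrays differ in strain, and the part of neutrophils in the early gene differences was not tested.

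Hspa1a encodes the stress-inducible Hsp70. Its signals were 2122, 2189 and 2068 in noise-exposed 129X1/SvJ and 1218 and 820 in noise-exposed B6.CAST, while all 5 control arrays of both strains lay between 785 and 905. The second noise array of B6.CAST lay within that range and the other 4 noise arrays above it. The strain difference was -1.10 ± 0.17 after noise (adjusted p = 0.0099) and 0.11 in control mice, and it did not pass without the second noise array of B6.CAST. Of 22 heat shock protein genes it was the 1 called lower, with 0 called higher. Their median was 0.29 in control mice and -0.02 after noise. List medians this close to 0 have no settled sign, since centring arrays on their medians in place of quantile normalization moved the median of all genes from 0.019 to 0.097. Among the others the neighbouring copy Hspa1b was at -0.43 and the constitutive Hspa8 at 0.00, both chosen after their values were seen, and probes can mix the signals of near-identical Hsp70 copies. Hsf2, a heat shock transcription factor, was at 1.65 (adjusted p = 0.205) and Cryab, the small heat shock protein alphaB-crystallin, at 0.55. Neither passed, and their control differences were 1.74 and 0.59.

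Csn3, which encodes the milk protein kappa-casein, had signals of 220, 253 and 235 on the 129X1/SvJ noise arrays and 37.5 and 48.8 on those of B6.CAST. Control arrays read 9.2 to 26.1 and 30.8 and 32.6, all below the filter signal of 42.9, so the sign of a difference between them is not settled. The strains overlapped in no array after noise (-2.0 ± 0.30, adjusted p = 0.0078), and the difference had the opposite sign in control mice (0.48, not called). The change between them had the smallest unadjusted p of the named genes, 0.00011 (adjusted p = 0.521). Gpr3, a receptor that raises cyclic AMP, was lower too, with 211, 136 and 114 against 28.0 and 30.1 (-1.76 ± 0.32). Its control arrays read 15.2 to 35.6 in both strains, and its signals outside the 129X1/SvJ noise arrays all lay below 42.9. Pim1, a kinase gene switched on by STAT signalling, had 2423, 1874 and 2010 against 948 and 952 (-1.14 ± 0.20). Zfp36l2, whose protein destabilizes mRNA, had 3278, 2473 and 2781 against 1711 and 1315 (-0.95 ± 0.17), with all control arrays at 1406 to 1579. Emp1, a membrane protein gene, and Lmna, which encodes the nuclear lamins A and C, were lower too (-1.11 ± 0.16 and -1.0 ± 0.20); Emp1 is named after its values were seen. Leaving out a B6.CAST noise array ended the calls of Csn3, Gpr3, Pim1 and Zfp36l2, and that of Emp1 only without the second. Lmna was lost in 5 fits, without either B6.CAST noise array, noise array 1 or 3 of 129X1/SvJ, or its control array 2. The second probe sets of Zfp36l2 (0.18) and Lmna (-0.20) did not pass.

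In the other direction, Aass, the first enzyme of lysine breakdown, had signals of 1759, 1983 and 2550 in noise-exposed 129X1/SvJ and 4852 and 3890 in noise-exposed B6.CAST. Control arrays of the strains overlapped, at 3677 to 4950 and at 4753 and 5142, so the noise arrays of 129X1/SvJ were the low ones (1.01 ± 0.18, adjusted p = 0.018). A2m, the protease inhibitor alpha-2-macroglobulin, had 2378, 1807 and 2312 against 6111 and 5399 (1.38 ± 0.18, adjusted p = 0.0033), and 0.53 in control mice. Cers2, a ceramide synthase, had 324 to 412 against 774 and 636 (0.94 ± 0.18), with 0.13 in control mice. Aass and Cers2 did not pass without the second noise array of 129X1/SvJ or without either B6.CAST noise array, and A2m was lost when B6.CAST noise array 1 was left out. Msx3, a homeobox gene, had a difference of 0.72 that did not pass (adjusted p = 0.083) and -0.36 in control mice.

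**Figure D2:**
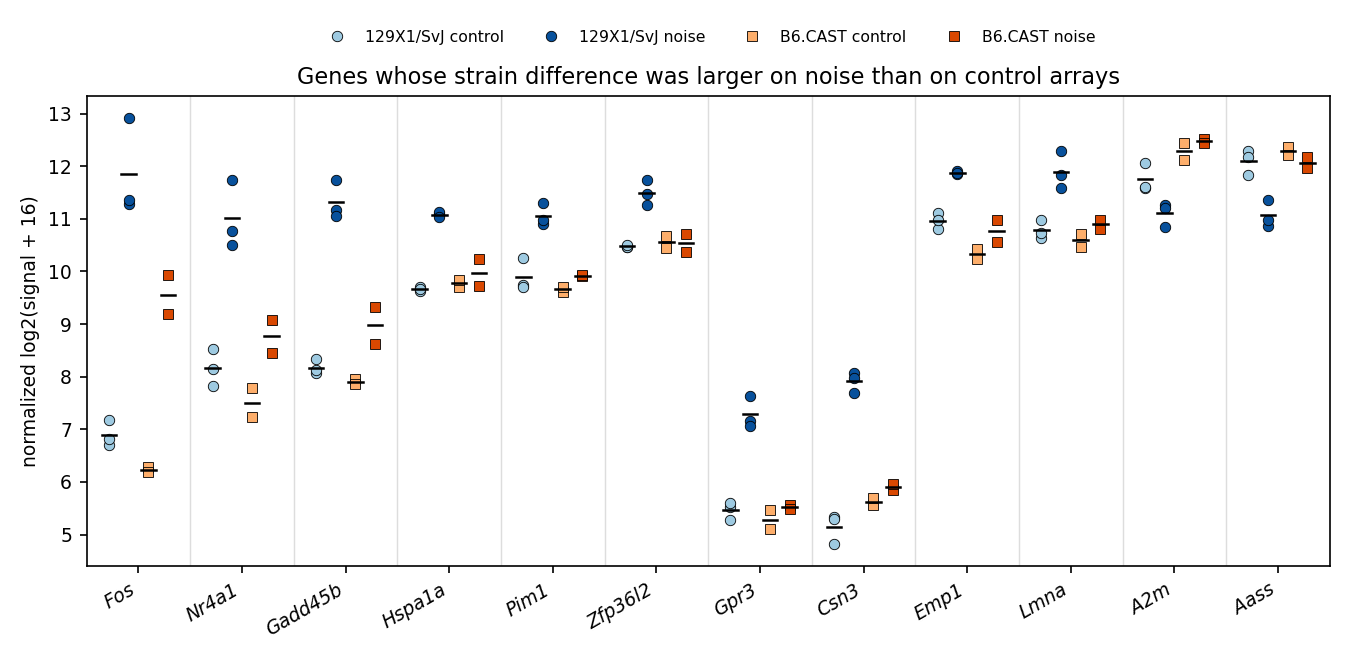
Normalized log2 signal on each array (points) with group means (bars) for 12 called genes whose strain difference was larger with noise than in control mice, chosen after their values were seen. For Hspa1a, Gpr3 and Zfp36l2 the 129X1/SvJ noise arrays lie above all other arrays, while for Fos and Nr4a1 both strains lie above their controls.

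Signalling genes downstream of cytokines leaned lower in B6.CAST without a call. Of 19 tested STAT3, C/EBP and NF-kappaB genes, 0 passed in either direction, the median was -0.59 (-0.22 in control mice), and arrays did not overlap for 14 lower and 2 higher genes, against 12.2% and 13.2% of all probe sets. Cebpd, a transcription factor of the acute phase, had signals of 2896, 2028 and 2076 against 1279 and 1149 (-0.94 ± 0.22, adjusted p = 0.071). Tnfaip2 (-1.25), Timp1 (-0.95) and Lcn2 (-3.03 ± 0.67, adjusted p = 0.052), an iron-binding protein of the acute phase that neutrophils also store, did not pass. The control differences were -0.64 for Cebpd, -0.89 for Tnfaip2, -0.02 for Timp1 and 0.26 for Lcn2. The chemokine and cytokine list had 0 of 21 called and a median of 0.02, near that over all genes (0.019). Arrays did not overlap for 3 lower and 3 higher genes of this list. Its smallest p-values in limma were those of Cxcl1 (-1.37 ± 0.46), Tgfb1 (-1.745), Il6st (0.49) and Ccl11 (1.13), and none passed. Their control differences were 0.02, -0.80, 0.23 and 0.63. The monocyte attractant Ccl2 of this list, named after its values were seen, had 524 to 1122 against 654 and 269 (-0.87 ± 0.46), and the strains overlapped. Without 129X1/SvJ noise array 1 the median of the STAT3 list was -0.41. Serpina3n, an acute phase protease inhibitor, and Agt, angiotensinogen, both chosen after their values were seen, did pass as lower (-1.85 ± 0.28 and -1.28 ± 0.26). Their calls were lost without either B6.CAST noise array, and that of Agt also without any 1 control array.

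Many wide differences belonged to genes that separated the strains with and without noise. Gas5, a noncoding RNA that hosts small nucleolar RNAs, had signals of 322, 428 and 495 in 129X1/SvJ and 3302 and 2508 in B6.CAST after noise, and 387 to 583 and 2488 and 3285 in control mice. The groups were far apart and nearly the same with and without noise (2.80 ± 0.25 and 2.61 ± 0.25). Snhg6, another host of small nucleolar RNAs, had 146, 188 and 171 against 1063 and 1132 (2.69 ± 0.22). The other 9 tested snoRNA host genes were not called, among them Snhg1 (-0.35) and Snhg5 (-0.51), and the list's median was -0.06. Pttg1, securin, which restrains the separation of sister chromatids, had 378, 385 and 299 against 1973 and 1914 (2.44 ± 0.18). It was the 1 called of 26 cell cycle genes, whose median was -0.25, and Mki67, a proliferation marker, had -2.74 ± 0.83, which missed the threshold (adjusted p = 0.20). The calls of Gas5, Snhg6 and Pttg1 held without any 1 array.

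Pla2g12a, a secreted phospholipase, had signals of 498, 704 and 507 against 4011 and 5803 (3.06 ± 0.23), and Spg21 had 408, 492 and 546 against 2500 and 2373 (2.32 ± 0.22). A probe set annotated to the microRNA gene Mir686 differed by 2.32 ± 0.16, and whether it reads that microRNA or a longer transcript was not tested. Arcn1, a coatomer subunit of vesicle transport, had signals of 15.7, 25.0 and 126 against 1060 and 781. Since the first 2 lie near the pseudocount, the size of its difference rests on that setting (4.13 ± 0.66, and 4.81 and 3.17 with pseudocounts of 1 and 64), and it did not pass without either B6.CAST noise array. Abcd3, a peroxisomal transporter, had 872, 898 and 1274 against 3133 and 3303 (1.64 ± 0.22), and Ankrd33b had 21.6 to 45.3 against 176 and 176 (2.12 ± 0.29). Sorl1, a sorting receptor, and Scpep1, a serine carboxypeptidase, were higher as well (2.17 ± 0.45 and 1.85 ± 0.33), as was the lipoprotein gene Apof (1.94 ± 0.40). Sorl1 lost its call in 8 of the 10 fits without 1 array, Apof in 4 and Scpep1 in 2.

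Fewer genes were lower in B6.CAST, 41 against 62, and in B6.CAST Fbp1 had signals near the filter on dim probe sets (42.9). Plbd1, a phospholipase of lysosomes, had signals of 1904, 1661 and 2307 in 129X1/SvJ and 234 and 224 in B6.CAST, the smallest adjusted p of all (-3.01 ± 0.19, adjusted p = 4.3e-05). Fbp1, which removes a phosphate from fructose bisphosphate in gluconeogenesis, had 360, 368 and 294 against 51.2 and 16 (-2.84 ± 0.33). Pam, which amidates the end of peptide hormones, had 1093, 1350 and 1814 against 150 and 259 (-2.70 ± 0.30). Bcat2, the mitochondrial aminotransferase of branched-chain amino acids, had 1192, 1190 and 1094 against 163 and 259 (-2.39 ± 0.22). Gdpd3, a phosphodiesterase gene, and Klk1b22, a kallikrein of a near-identical gene family and so uncertain, were at -2.25 ± 0.19 and -2.39 ± 0.25. All 6 of these kept their calls without any 1 array, and all 6 were called in control mice. Med1, a Mediator subunit, was at -2.04 ± 0.33 and the Wnt inhibitor Sfrp1 at -2.0 ± 0.37, the 1 called of 28 Wnt pathway genes (median 0.05). Both lost their calls in fits without 1 array, Med1 in 2 and Sfrp1 in 3, and both were called in control mice.

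**Figure D3:**
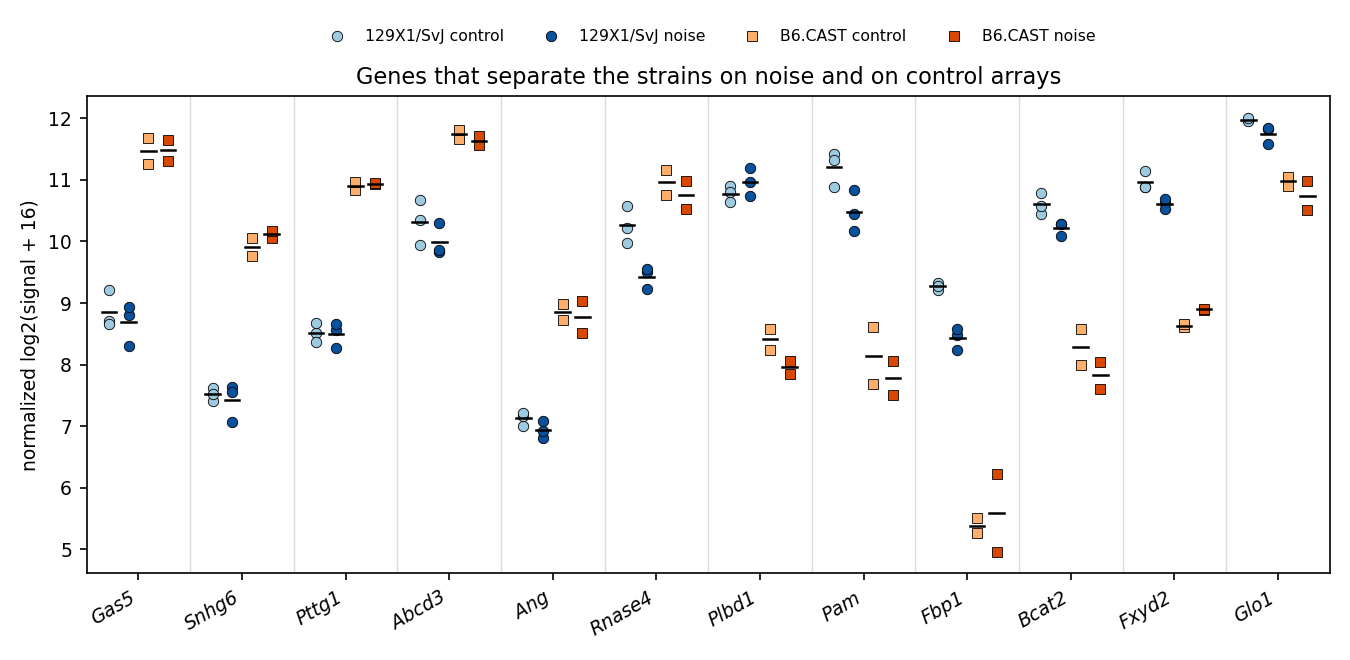
Normalized log2 signal on each array (points) with group means (bars) for 12 genes called with noise, chosen after their values were seen. Each had a strain difference of the same sign in control mice, though that of Rnase4, for example, was not called there. For every gene shown the squares (B6.CAST) of the noise arrays lie wholly to 1 side of the circles (129X1/SvJ). The same holds for all 126 called probe sets.

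A second probe set of the same gene seldom showed the same size of difference. A difference given for a gene thus describes its brightest probe set unless stated, and why probe sets of a gene differed was not tested. Another tested probe set of the gene existed for 32 of the called ones, which gave 33 pairs. In 25 of these the other had the same sign, in 4 it was called in that direction (both probe sets of Gadd45b and of Pglyrp1), and the median ratio of the other to the called difference was 0.245. Gas5 had 1.33 on its other probe set (adjusted p = 0.064), Arcn1 1.22, Pla2g12a 0.75, and Igfbp3 -1.43, none of which passed. Clta (called 1.53) and Trim21 (1.25), chosen after their values were seen, had the opposite sign on the other probe set, at -1.07 and -0.22. Of the 126 called probe sets, 23 carry a suffix for probes that may match related sequences, as do 1704 of all 8696 tested, and among them are those of Arcn1, Pla2g12a, Gas5, Pttg1, Spg21, Ang, Ang2, Clta, Klk1b22, Igkv6-23, Gadd45b and Lmna.

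The secreted ribonucleases Ang, Ang2 and Rnase4 were called higher in B6.CAST; they come from no fixed list. Ang, angiogenin, had signals of 124, 111 and 117 in 129X1/SvJ and 331 and 515 in B6.CAST (1.83 ± 0.24). Ang2 had 44.4 to 54.5 against 152 and 162 (1.56 ± 0.29), although paralogs of this family can share probes. Rnase4, named after its values were seen, had 690, 584 and 754 against 1477 and 1952 (1.32 ± 0.22). In control mice the differences were 1.72, 0.90 and 0.70, of which that of Ang was called. Without B6.CAST noise array 2 the calls of Ang and Rnase4 were lost, and without either one that of Ang2. In RefSeq the single promoter entry of Ang is identical to 1 of the 2 entries of Rnase4, so it is shown here (GRCm38.p6, chr14:51090827-51091076, plus strand, 5′ to 3′); capitals mark 2 matches to GAANNTTC.
Ang and Rnase4: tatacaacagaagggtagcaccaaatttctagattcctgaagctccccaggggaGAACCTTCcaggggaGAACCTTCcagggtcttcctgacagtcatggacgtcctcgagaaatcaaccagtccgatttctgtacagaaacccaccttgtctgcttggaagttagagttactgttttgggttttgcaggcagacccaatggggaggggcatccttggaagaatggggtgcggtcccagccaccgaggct

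Genes induced by type I interferon leaned higher in B6.CAST in both conditions, with few calls. Of 18 tested type I interferon genes, 2 were called higher and 0 lower, 17 had positive differences, and the median was 0.63 with noise and 0.54 in control mice. Ifi27, a small membrane protein, had signals of 3832, 4489 and 4327 against 6979 and 7382 (0.72 ± 0.12, adjusted p = 0.013). Isg15, a ubiquitin-like modifier, had 446, 409 and 515 against 924 and 759 (0.87 ± 0.18, adjusted p = 0.041), and this call was lost in all 10 fits without 1 array. The call of Ifi27 was lost without either B6.CAST noise array. Usp18, which removes Isg15 from proteins, was at 1.54 ± 0.40 (adjusted p = 0.10), and Ifit3 (1.44) and Rsad2 (1.10) did not pass either. The first noise array of B6.CAST, the one of high Gapdh ratio, was the highest, with a mean deviation of the list of 0.65 against 0.24 on the second, and without it the median was 0.42 with 0 called. Without the second it was 0.72, again with 0 called. The part of that ratio was not tested.

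Of 27 tested genes of the interferon-gamma and antigen presentation list, 1 was called higher and 2 lower, with a median of 0.24. Gbp2, a GTPase induced by interferon-gamma, had signals of 118, 134 and 199 in 129X1/SvJ and 697 and 316 in B6.CAST (1.70 ± 0.36, adjusted p = 0.046), and Igtp, a related GTPase, was at 1.24 ± 0.28 (adjusted p = 0.060). Both genes called lower encode chains of an MHC class II molecule. H2-Aa had 972, 710 and 671 against 218 and 257 (-1.63 ± 0.28), and H2-Ab1, its partner chain, had 470, 351 and 324 against 114 and 113 (-1.55 ± 0.29). Cd74, the invariant chain that travels with class II molecules, had -1.58 ± 0.34 and missed the threshold (adjusted p = 0.0505). Other class II genes, chosen after their values were seen, had both signs and did not pass. H2-Eb1 had -0.93 and H2-DMb1 0.64, each with arrays that did not overlap, while H2-DMa had -0.14 and the class II regulator Ciita 0.19. Of the class I pathway, Tap1 (0.38), Tapbp (0.47) and Psmb8 (0.30), also chosen so, did not pass either. In control mice H2-Aa and H2-Ab1 were at -0.94 and -1.06 and were not called. Without B6.CAST noise array 1, the one of high Gapdh ratio, the difference of Gbp2 was 1.11. Its call was lost in 8 of the 10 fits without 1 array, that of H2-Ab1 in 4 and that of H2-Aa in 2, in each case including the first B6.CAST noise array. Lymphocyte markers had 0 of 11 called, a median of -0.40 and summed signals of 3620 to 5693 in 129X1/SvJ and 3541 and 3148 in B6.CAST after noise, and macrophage markers 0 of 14, a median of 0.06 and 6515 to 8678 against 7476 and 8993. Their part in the class II differences was not tested.

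Markers of neutrophils and their precursors had the median farthest from 0 of all lists. Of 15 tested, 0 were called higher and 1 lower, all 15 differences were negative, 14 had arrays that did not overlap (12.2% of all probe sets in that direction), and the median was -2.53. In control mice the median was 0.16. Chil3, a chitinase-like protein of myeloid cells, had signals of 2078, 703 and 1099 in noise-exposed 129X1/SvJ and 113 and 102 in noise-exposed B6.CAST (-3.24 ± 0.60, adjusted p = 0.021). Control arrays spread over 237 to 765 and 218 and 909, so the strains overlapped there. The calprotectin genes S100a8 and S100a9 were at -3.01 ± 0.73 and -3.02 ± 0.74 and the granule gene Camp at -2.61 ± 0.60, and none of these passed (adjusted p = 0.083, 0.083 and 0.063). Summed over the 15 markers, signals in control mice ran from 3826 to 22280 in 129X1/SvJ and were 21156 and 6354 in B6.CAST. Control arrays of the same strain thus lay far apart, and both B6.CAST noise arrays lay below all 5 of them. Without 129X1/SvJ noise array 1 the median was -2.05 and Chil3 was no longer called; its call was also lost without either B6.CAST noise array.

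Some other genes of blood and marrow cells were called lower as well. Hbb-b2, a beta-globin, had signals of 11094, 6676 and 7327 against 1118 and 1737 (-2.52 ± 0.53, adjusted p = 0.042), the 1 called of 11 erythroid markers, whose median was -1.22 (-0.28 in control mice). The call was lost in 8 of the 10 fits without 1 array, all 5 noise arrays included. The median of the erythroid markers was -0.87 without 129X1/SvJ noise array 1. Their summed signals after noise were 34933 to 50594 in 129X1/SvJ and 20340 and 23762 in B6.CAST. In control mice they spread over 26959 to 49017 in 129X1/SvJ and were 37261 and 21564 in B6.CAST. Igkv6-23, an immunoglobulin light chain segment of a near-identical family and so uncertain, was at -3.39 ± 0.73. Jchain, which joins antibody subunits, and Pglyrp1, a bactericidal protein of neutrophil granules, were at -1.82 ± 0.34 and -1.94 ± 0.38, both named after their values were seen. Alad, the second enzyme of haem synthesis and also chosen so, was at -1.0 ± 0.18 and nearly the same in control mice (-0.96, called). Igkv6-23 lost its call in 7 fits, Jchain in 4, Alad in 3 and Pglyrp1 in 2. Of 12 bone markers 0 were called, with a median of -0.75, and Ibsp, a matrix protein of bone, was at -2.27 ± 0.56 (adjusted p = 0.083). Their summed signal went the other way, at 12182 to 12984 in 129X1/SvJ and 14100 and 13580 in B6.CAST. The part of blood, marrow or bone in the dissected tissue was not tested.

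**Figure D4:**
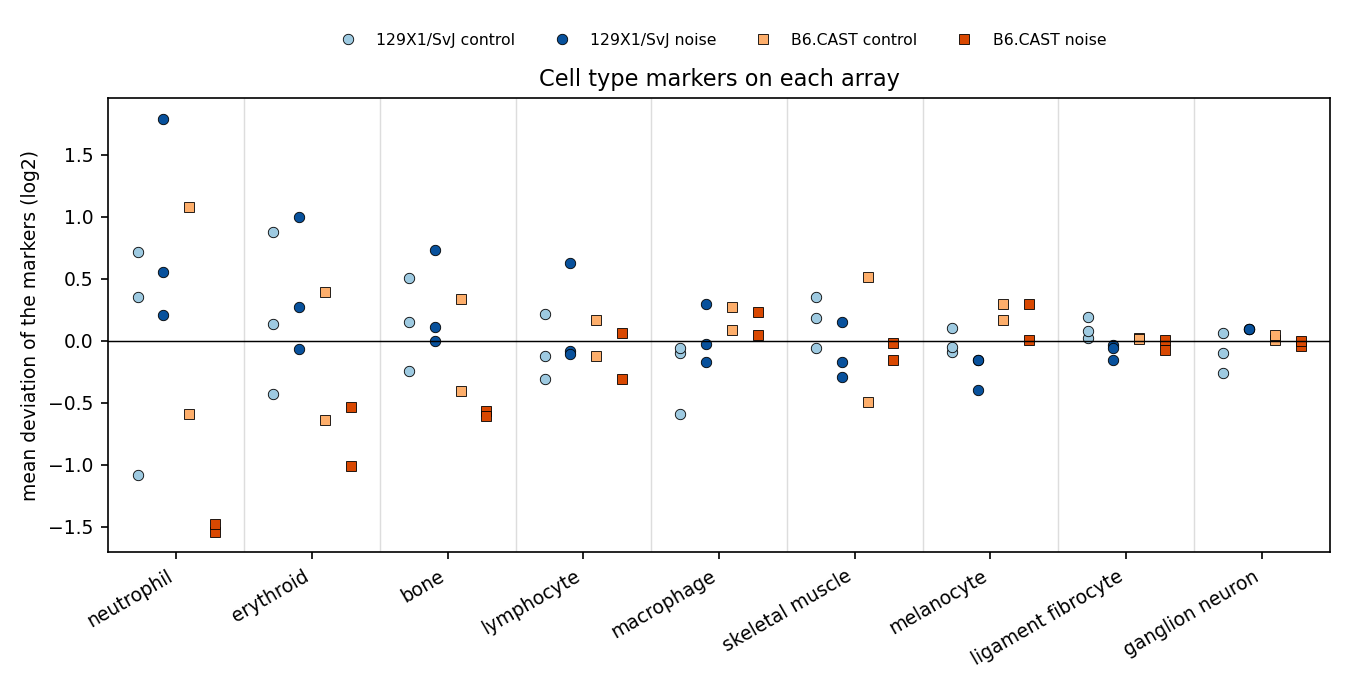
Mean deviation of each marker list from its average over all arrays (log2), 1 point per array. Neutrophil markers run from -1.54 and -1.48 on the B6.CAST noise arrays to 1.79 on the first 129X1/SvJ noise array, while ligament fibrocyte and ganglion neuron markers stay close to 0.

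Enzymes of metabolism were called in both directions, the lower ones including Fbp1 and Bcat2, described above. Pdk1, a kinase that shuts pyruvate dehydrogenase, had signals of 423, 453 and 425 against 801 and 893 (0.97 ± 0.16, adjusted p = 0.013). Its difference in control mice was 0.64 and was not called. Sdhd, a membrane anchor of respiratory complex II, had 2136, 2253 and 1991 against 3414 and 3541 (0.69 ± 0.12). It was also called in control mice, with a wider difference of 0.93. After noise it was the 1 called of 71 respiratory chain genes, of which 55 had positive differences. Their median was 0.11, and -0.01 without 129X1/SvJ noise array 1. Hsd11b1, which regenerates active glucocorticoid, had 361, 304 and 397 against 965 and 1009 (1.49 ± 0.21, adjusted p = 0.0047). In control mice its difference was 1.01 and just missed the threshold (adjusted p = 0.0505). The glucocorticoid list had a median of -0.35 and no other call among 21 genes. That median was -0.39 in control mice, and -0.09 after noise without 129X1/SvJ noise array 1. Named after their values were seen, Pdhb of pyruvate dehydrogenase (1.07 ± 0.19), Acadm of fatty acid oxidation (1.06 ± 0.22), and Mccc1 (1.15 ± 0.23) and Ivd (0.86 ± 0.18) of leucine breakdown were higher. So were the lysosomal enzymes Fuca1 (1.12 ± 0.19) and Asah1 (1.07 ± 0.21). Glo1, which detoxifies methylglyoxal and was also chosen so, was lower, with 2957, 3739 and 3570 against 1462 and 1964, and by the same -1.0 in control mice. Of 38 oxidant defence genes 0 were called by their brightest probe set (median -0.04). Another probe set of the list member Prdx2, named after its values were seen, was called higher (1.93), against -0.22 on its brightest. The call of Ivd was lost in all 10 fits without 1 array, that of Acadm in 7 and that of Mccc1 in 6; those of Pdk1, Hsd11b1, Pdhb and Fuca1 were lost without either B6.CAST noise array, as were those of Sdhd and Asah1, which were also lost without 129X1/SvJ noise array 3 and 2 respectively. Glo1 was lost without B6.CAST noise array 1.

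Genes of the stria vascularis and of ion transport gave few calls. Dct, an enzyme of melanin synthesis that marks melanocytes and the intermediate cells of the stria, had signals of 6962, 8832 and 8140 against 13466 and 15272 (0.78 ± 0.13, adjusted p = 0.014), and 0.62 in control mice. Kit, the receptor these cells need to survive, had 189 to 232 against 332 and 410 (0.83 ± 0.19) and did not pass (adjusted p = 0.068). Of 8 melanocyte and intermediate cell markers 1 was called higher, 7 were positive and the median was 0.39, and the summed signal was 9844 to 11022 against 16012 and 17688, most of it from Dct. Trpm1, a channel of melanocytes named after its values were seen, was higher (1.13 ± 0.24), a call lost in all 10 fits without 1 array. Fxyd2, the gamma subunit that tunes the sodium pump, had 1515, 1413 and 1661 against 441 and 475 (-1.72 ± 0.15, adjusted p = 0.0002), held without any 1 array, and was -2.33 in control mice. It was the 1 called of 18 sodium pump and stria transport genes. Kcnab2, a beta subunit of potassium channels, was the 1 called of 20 potassium channel genes (1.49 ± 0.27), although its second probe set gave 0.04. The calls of Dct and Kcnab2 were lost without either B6.CAST noise array, and that of Kcnab2 also without the second of 129X1/SvJ.

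Other lists with a single call were complement, with Cd59a, which blocks the membrane attack complex (1.28 ± 0.22, 1 of 11), the IGF system, with the binding protein Igfbp3 (-1.64 ± 0.33, 1 of 12), and skeletal muscle, with the myosin light chain Myl1 (-1.98 ± 0.35, 1 of 15). In control mice these differences were 1.34, -2.45 and -1.45, of which those of Cd59a and Igfbp3 were called. The 15 muscle markers, Myl1 included, had a median of -0.11, whose sign is not settled, and summed signals of 16011 to 20771 against 18125 and 18186. Myl1 lost its call in 3 fits without 1 array, Igfbp3 in 6 and Cd59a in 2. Calls were 0 for markers of hair cells and tectorial membrane (10 tested), supporting cells (14), spiral ligament fibrocytes (16), spiral ganglion neurons (17), Schwann cells (12), marginal cells (5) and endothelium (19), with medians between -0.14 and 0.07. Of the 17 tested genes that lie near Cdh23 in RefSeq order, 0 were called and the median was -0.14. Collagens (0 of 24), solute carriers (0 of 118), genes with the ribosomal symbol prefixes Rpl and Rps (0 of 28, the S6 kinase genes Rps6kb2 and Rps6kc1 among them) and proteasome subunits (0 of 39) had medians between -0.05 and 0.035.

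**Figure D5:**
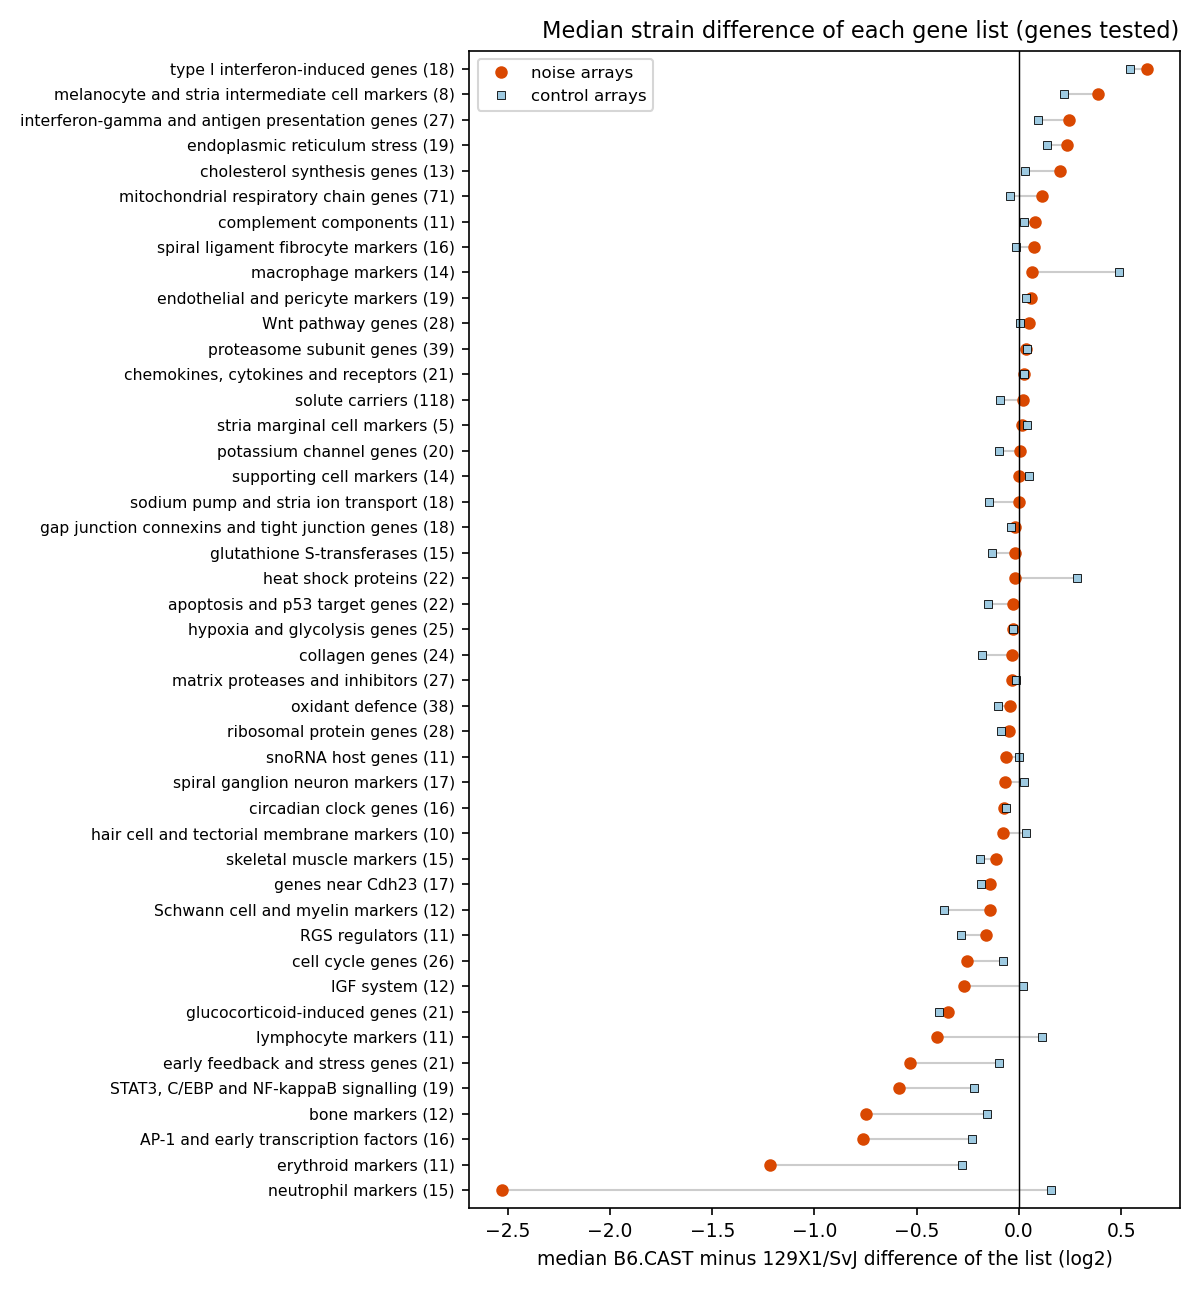
Median strain difference of each gene list (B6.CAST minus 129X1/SvJ, log2) on noise arrays (circles) and control arrays (squares), with the number of genes tested in brackets. Neutrophil (-2.53), erythroid (-1.22), AP-1 (-0.76) and bone (-0.75) lists lie farthest below 0 with noise and type I interferon genes (0.63) farthest above.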

How the data were processed

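RNA of 10 pools of mice was hybridised to one-colour Affymetrix arrays. The authors deposited linear signal intensities per probe set, which had been scaled array by array to a trimmed mean near 500, as the values show (500.268 to 500.304 on the 10 arrays). No source used here gives the software, its settings or detection flags. Gene names came from the platform annotation: 10855 probe sets have 1 gene, 396 several and 1237 are unnamed here, and 10839 of the first were found in RefSeq (GRCm38.p6). From the intensities, log2(intensity + 16) was quantile normalized, and 66 control probe sets and the 30% of the others with the lowest mean were left out (signal below 42.9). Fold changes on this scale understate dim genes.

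A model of 4 group means was fitted across the 10 arrays in limma 3.58.1 (R 4.3.3) with a variance trend. The Benjamini-Hochberg adjustment ran over 8696 probe sets, with a threshold of 0.05, and adjusted p-values in the text are from that fit. They measure the spread between pools, and the number of arrays limits the precision. The brightest probe set stood for each gene. The comparison, the lists and the tests were chosen with earlier results of these data known. Named are up to 15 genes per direction with the largest called difference, and the called members and up to 4 others of each list. Also named are up to 5 per direction by the test of the change in strain difference, and label checks. Genes outside this rule are marked where named. The fit was tested on simulated data. Alternatives covered the scaling, pseudocount, filter, variance model, threshold, arrays in the fit and replicate block. The arrays of a group are labelled biological replicates. Replicate numbers were not taken as pairs: same-numbered arrays of the strains correlated at -0.18 and 0.14 in their deviations with noise. Promoter windows were searched with Python 3.11.15.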

Additional observations from a re-analysis of the deposited data

How the results depend on the processing

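The count of 126 probe sets called with noise was 195 with array weights, 44 with the replicate block, 52 with the noise arrays alone, 67 with those and the replicate block, 44 without the first noise array of each strain, and 39 and 204 at thresholds of 0.01 and 0.10. It was 26 without both arrays of high Gapdh ratio, chosen after seeing the data, and 27 to 123 without 1 array. In the same order, the count of 80 in control mice was 139 with array weights, 34 with the replicate block, 153 with the control arrays alone, 153 without the first noise arrays, 34 and 132 at the thresholds, 36 without the high Gapdh arrays, and 23 to 132 without 1 array. The test of the change in strain difference between control and noise-exposed mice called 0 under each alternative run. Of the 103 called genes, 70 were not called with the replicate block and 67 with the noise arrays alone, and none reversed. Without the variance trend 39 were not called, with median centring 24, and with no filter 17. The other settings of scaling, pseudocount, filter and variance model cost at most 4 of the genes still tested. The replicate numbers are not known to pair the arrays. Dim genes near the filter (signal 42.9) rest on signals close to the pseudocount of 16.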
